A study of Homo sapiens with 12 samples.

Results

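KELLY cells given the morpholino BPS2 were compared directly with KELLY cells given the morpholino BPS1, over 8 of the 12 RNA-seq libraries of the series. KELLY is an established human neuroblastoma line that carries extra copies of MYCN. The comparison took every library labelled with either oligonucleotide, 4 per group, and the 4 libraries of a control oligonucleotide entered none of the main tests, so their means are printed only as a reference level. In all 3 groups the oligonucleotide was annealed to a DNA leash and carried by a lipid reagent. The protocols in the labels describe plating for 24 h in 10% serum, a change to 4% serum, 50 nM of the complex and lysis 48 h later. BPS1 and BPS2 are thus compared at the same dose and time, as 1 pair. The sources used here give neither their sequences nor their target positions, so nothing is said of how they differ in structure. The data come from 1 cell line. Whether replicate libraries came from separate cultures is not stated in the labels, and the p-values therefore rest on library-to-library spread that may be technical.

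Morpholinos are uncharged antisense molecules that cover a stretch of RNA and block what would bind there, without recruiting the enzyme that cuts RNA paired with DNA. The series text addresses NEAT1, a long non-coding RNA made as a short and a long transcript from the same start. The long one, NEAT1_2, is the scaffold of paraspeckles, nuclear bodies that also hold the proteins NONO, SFPQ and PSPC1. Several genes below belong to the sterol pathway. In it, the membrane protein SREBP2 is held in the endoplasmic reticulum by INSIG proteins while sterols are plentiful. When they are scarce it is cut and its released part turns on the genes of cholesterol synthesis and uptake.

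Per library, 32064 to 34025 genes were above 0 in the deposited data. BPS1 replicate 4 stood apart from the other 7 libraries. The standard deviation over genes of its deviation from each gene's median was 0.533, against 0.343 to 0.369 in the rest. It lay alone at 59.9 on the first principal component (28.8% of the variance), where the others lay between -28.7 and 14.0. It correlated slightly less with its own group (mean r across genes 0.975) than with the BPS2 libraries (0.977). The second component (22.7%) separated the groups, with BPS1 at 18.2 to 35.1 and BPS2 at -26.6 to -22.4. A library's deviations also followed transcript GC content to different extents (Spearman's rho across genes, which are not independent). That rho was -0.137, -0.215, -0.181 and 0.360 in BPS1 replicates 1 to 4 and -0.214, 0.131, 0.176 and 0.0808 in BPS2 replicates 1 to 4. The GC trend thus moved partly with the group. Its part in the gene differences was not tested gene by gene. Where the GC correction ended or added the call of a gene named below, that is stated. Other calls that it added are not named, and not every list count with it is given.

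**Figure D1:**
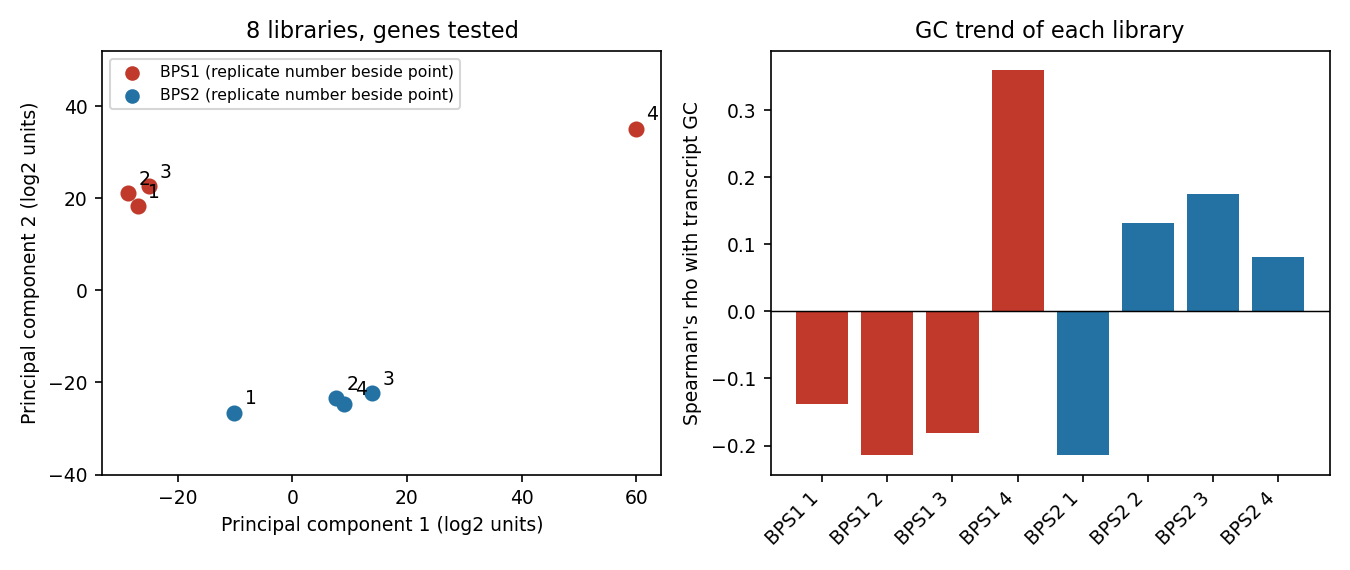
Left, the 8 libraries on the first and second principal component of the genes tested (axes in log2 units, 1 point per library, replicate number beside it). Right, Spearman's rho between each library's deviation from the gene median and transcript GC content, 1 bar per library. BPS1 replicate 4 lies at 59.9 on the first component and has the highest rho, 0.360, while the second component separates BPS1 from BPS2.

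Of 19654 genes tested, 562 (2.86%) differed between the oligonucleotides (limma on log2(value + 1), adjusted p under 0.05). BPS2 was higher in 327 of them (1.66%) and lower in 235 (1.2%). At least a 2-fold difference was reached by 53 of the higher and 70 of the lower genes. The median absolute log2 difference of called genes was 0.65. Over all genes tested the median difference was -0.00, and 49.7% lay above 0. The values of the groups did not overlap for 2391 genes (12.2%), 1219 with BPS2 higher (6.2%) and 1172 with BPS2 lower (5.96%). The number of calls rested strongly on 1 library: without BPS1 replicate 4 it was 3336 (17.2% of the genes then tested), with 2014 higher (10.4%) and 1322 lower (6.81%). Each list count without that library below is to be read against these shares. Without any other single library it was 235 to 318. Of the 562 genes, the 548 still tested without BPS1 replicate 4 were all called there too. With a GC correction 739 genes were called (3.76%), 428 higher (2.18%) and 311 lower (1.58%). In 31 of the 562 genes, 10 higher and 21 lower, 1 group had a mean under 10, so they passed the filter on low values largely through the group where they are high. List counts in the 8 libraries are to be read against the 2.86% called of all genes, and a list with 1 or 2 calls is given as a count only.

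**Figure D2:**
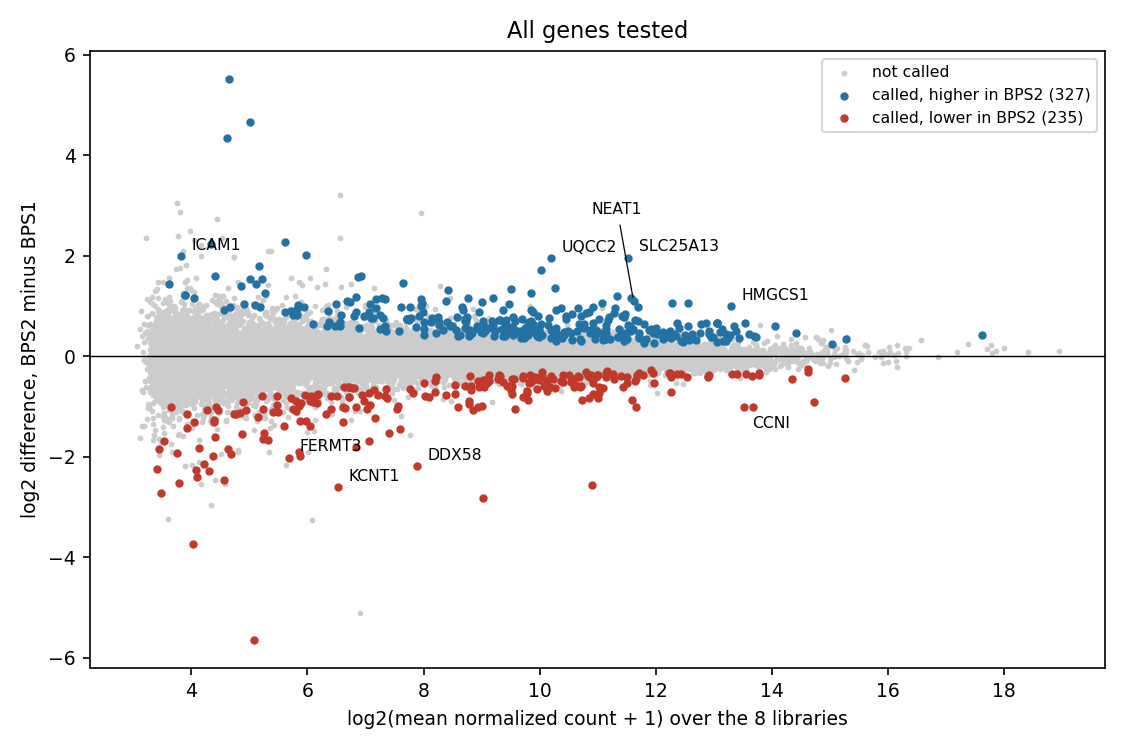
Log2 difference, BPS2 minus BPS1, of each of 19654 genes (vertical axis) against the log2 of its mean normalized count plus 1 over the 8 libraries (horizontal axis). Blue points are the 327 genes called higher in BPS2 and red points the 235 called lower, with some of the genes described in the text labelled.

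NEAT1 (ENSG00000245532; chr11:65422774-65445540, plus strand, GRCh38) was higher with BPS2 than with BPS1. BPS2 libraries held 4853, 4198, 3912 and 4083 and BPS1 libraries 2380, 2150, 2150 and 1414. The groups did not overlap, and the lowest value was that of BPS1 replicate 4. The log2 difference was 1.10 ± 0.15 (SE; limma adjusted p = 0.00545), and the exact two-sided permutation p was 0.0286, the smallest that 70 arrangements can give. Without BPS1 replicate 4 the difference was 0.93. In both groups the mean (4262 ± 412 and 2024 ± 420, SD, n = 4) lay below that of the control libraries, 6879 ± 264. The row corresponded to 3773 to 4900 reads per BPS2 library and 1294 to 2515 per BPS1 library. The 95% exact Poisson interval was 1224 to 1366 at the lowest of these counts and 4764 to 5039 at the highest, and it covers counting error only. The table has a single row for the gene, so the short and the long transcript cannot be told apart.

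Among 20 paraspeckle protein genes, 1 was called higher, 0 lower, and the median log2 difference was -0.04. Without BPS1 replicate 4, 4 genes of the list were called higher and 3 lower. For the core proteins the 95% intervals of the log2 difference were -0.10 to 0.23 for NONO (adjusted p = 0.738), -0.05 to 0.25 for SFPQ (0.524) and -0.34 to 0.03 for PSPC1 (0.399). Without BPS1 replicate 4, NONO (0.13, adjusted p = 0.00793) and SFPQ (0.16, adjusted p = 0.00668) were called higher. Among 15 nuclear and abundant long non-coding RNAs, NEAT1 alone was called, the median was 0.22, and without BPS1 replicate 4 there were 5 higher and 2 lower. With the GC correction 3 were called higher and 0 lower. MALAT1, a nuclear speckle RNA encoded next to NEAT1, differed by 0.24 (adjusted p = 0.250) and the cytoplasmic RNA NORAD by 0.40 (adjusted p = 0.0702, or 0.0198 with the GC correction and 0.00253 without BPS1 replicate 4). Of 15 snoRNA host genes 1 was called, SNHG3 (0.58 ± 0.08, adjusted p = 0.00671), whose row overlaps RCC1 on the same strand. The median of that list was 0.22, and without BPS1 replicate 4 it had 10 higher and 0 lower.

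The largest differences with BPS2 higher included metabolic genes of the mitochondrion and cytosol. SLC25A13 (chr7:96120220-96322147, minus strand) encodes citrin, the carrier that exchanges aspartate for glutamate across the inner mitochondrial membrane. It stood at 1282, 1311, 1065 and 1164 in BPS1 and at 5077, 4653, 4353 and 4686 in BPS2. Every BPS2 library lay above every BPS1 library, and the difference was 3.90-fold (log2 1.96 ± 0.09, adjusted p = 5.27e-06). The control mean was 4271. UQCC2 (chr6:33694293-33711727, minus strand), an assembly factor of respiratory complex III, held 495, 459, 440 and 527 in BPS1 and 1740, 1956, 1796 and 1957 in BPS2. Its difference was of like size (1.95 ± 0.09, adjusted p = 5.27e-06), again with no overlap and with a control mean of 1674. IDH1, the cytosolic isocitrate dehydrogenase that makes NADPH, had 1713, 1528, 1458 and 1581 in BPS1 and 3586, 3546, 3613 and 3583 in BPS2. No values overlapped, the difference was 1.19 ± 0.07 (adjusted p = 3.87e-05), and the control mean was 3610.

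Another 9 genes completed the 12 largest rises that the naming rule allows. ZBED6CL differed by 1.72 ± 0.10 (adjusted p = 2.79e-05), with a BPS2 mean of 1600 ± 32.2, a BPS1 mean of 488 ± 61.9 and a control mean of 829. Its row overlaps LRRC61 on the same strand. ADAT2, a subunit of the enzyme that makes inosine in transfer RNA anticodons, differed by 1.36 (692 against 1757), and TMSB15B, an actin-binding thymosin, by 1.35 (408 against 1041). HRK, a BH3-only activator of apoptosis, averaged 194 ± 26.8 in BPS1 and 488 ± 100 in BPS2 (1.31 ± 0.16, adjusted p = 0.00324), beside 503 in control. PARP4, the vault particle member of the PARP family, differed by 1.27 (542 against 1303). The pseudogene KLRA1P (1.60), which resembles related receptor genes and is uncertain for that reason, and the antisense rows SCOC-AS1 (1.26) and HOXD-AS2 (1.17) were lower in level, with BPS2 means of 181, 52.8 and 157. TMEM56, whose row overlaps AC092802.3 and TMEM56-RWDD3 on the same strand, had the highest estimate, 2.02 ± 0.45. Its BPS2 values of 200, 37.4, 63.4 and 113 were widely spread, above BPS1 values of 13.3 to 24.4. Its call (adjusted p = 0.0457) was lost in 6 of the 8 omissions of a single library, that is in all except BPS1 replicate 4 and BPS2 replicate 2, and the adjusted p then reached 0.139.

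**Figure D3:**
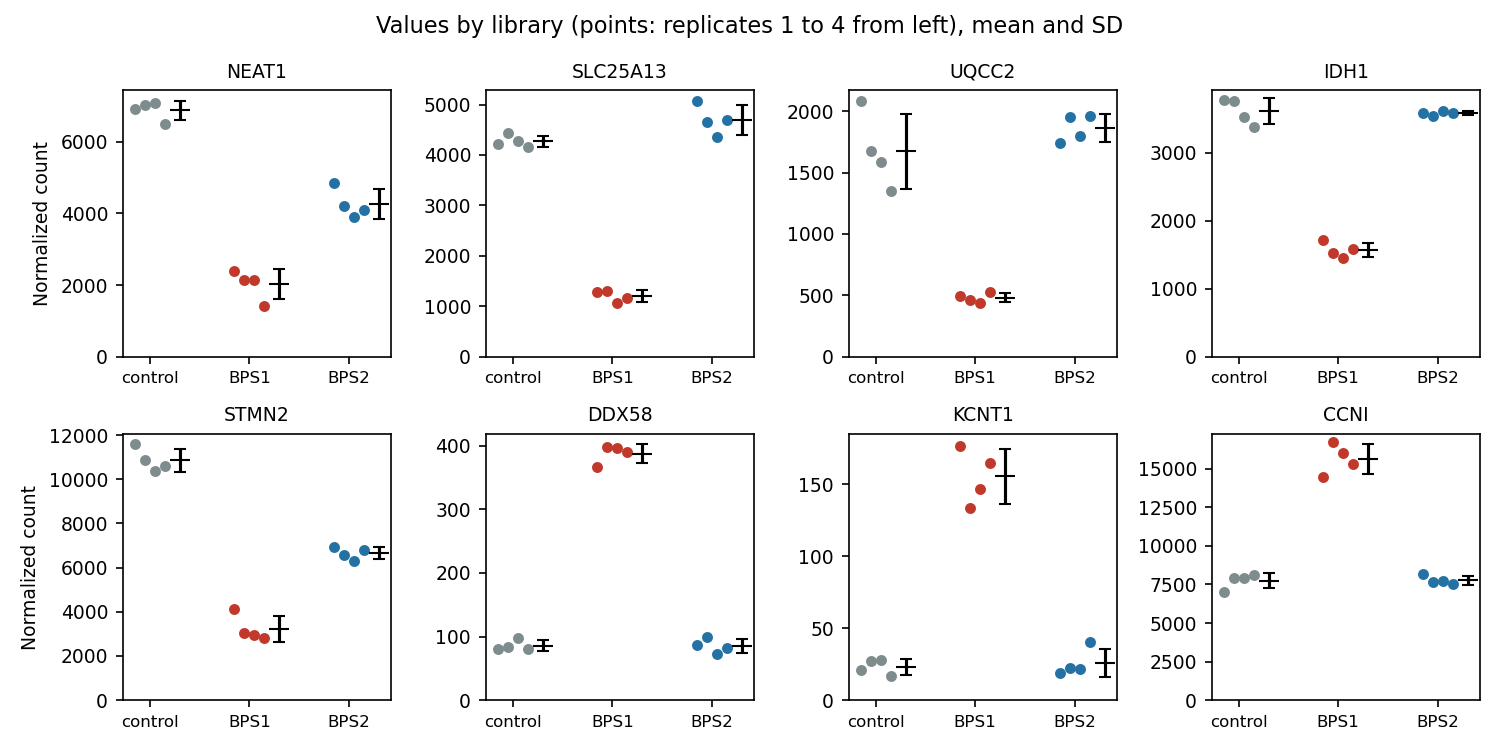
Normalized counts by library for 8 genes (each vertical axis starts at 0 and has its own scale), with 4 points per group for control, BPS1 and BPS2 and the mean with SD beside them. NEAT1, SLC25A13, UQCC2, IDH1 and STMN2 are higher in every BPS2 library than in any BPS1 library, and DDX58, KCNT1 and CCNI are lower.

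KCNT1 (chr9:135702185-135795508, plus strand), a potassium channel gated by sodium, had the largest fall by the same rule. It stood at 177, 134, 147 and 165 in BPS1 and at 18.9, 22.4, 21.8 and 40.3 in BPS2. The highest BPS2 value, in replicate 4, was still far below the lowest BPS1 value, and the difference was 6.05-fold (log2 -2.60 ± 0.23, adjusted p = 5.02e-04). Its control mean was 23.1. DDX58 (chr9:32455705-32526324, minus strand) encodes RIG-I, a cytosolic sensor of viral RNA. BPS1 libraries held 366, 397, 396 and 391 of it and BPS2 libraries 87.0, 99.9, 72.7 and 81.4. The difference was -2.18 ± 0.12 (adjusted p = 2.79e-05), and the control mean of 85.3 was close to the BPS2 mean of 85.2. FERMT3, the kindlin of blood cells that activates integrins, averaged 81.6 ± 18.1 in BPS1 and 19.1 ± 1.25 in BPS2 (-2.02 ± 0.18, adjusted p = 5.78e-04). Its control mean was 12.7. It overlaps TRPT1 on the other strand.

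Further genes among the 12 largest falls were at low to moderate levels in BPS1. DIO2, which activates thyroid hormone, differed by -1.68 (202 against 63.0), PAPLN, an extracellular matrix protein, by -1.53 (250 against 85.8), and the exchange factor gene MCF2 by -1.66 (59.1 against 18.4). SMOC2, a secreted matricellular protein, differed by -1.65, RAB38, a GTPase of pigment granule transport, by -1.30, and HK3, a hexokinase, by -1.29. THEMIS2 differed by -1.39 and FAM182A by -1.99. Control means were 91.7 for DIO2, 72.1 for PAPLN, 28.0 for MCF2 and 26.8 for SMOC2. They were 33.4 for both RAB38 and HK3, 44.6 for THEMIS2 and 58.0 for FAM182A. The FAM182A call was lost without BPS1 replicate 1, 2 or 3 or BPS2 replicate 1 (adjusted p up to 0.0691). That of THEMIS2 was lost without BPS1 replicate 1 or 3 or BPS2 replicate 1, 2 or 3 (up to 0.0715). The calls of DIO2 (0.0513) and HK3 (0.0550) were each lost without BPS2 replicate 4 only. DIO2, FAM182A, HK3, PAPLN and RAB38 overlap genes on the other strand. The antisense row AC004846.2 overlaps PAPLN and was chosen after its values were seen. It averaged 90.3 ± 18.1 in BPS1 and 23.5 ± 5.71 in BPS2 (-1.91 ± 0.22, adjusted p = 0.00223). The library kit keeps strand, but the sources used here do not say whether the counting used it.

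Genes at higher levels with differences of about 2-fold included CCNI, which encodes cyclin I. It held 14493, 16766, 15989 and 15329 in BPS1 and 8151, 7656, 7702 and 7522 in BPS2 (-1.01 ± 0.06, adjusted p = 4.88e-05), with a control mean of 7748. Chosen after their values were seen, GDI2, which recycles Rab GTPases, averaged 17513 ± 1015 in BPS1 and 8750 ± 252 in BPS2 (adjusted p = 4.28e-05). FASTKD2, a mitochondrial RNA-binding protein, averaged 4317 ± 453 and 2130 ± 136 (-1.01, adjusted p = 5.02e-04). Also chosen after its values were seen, AC015813.1 (chr17:57989039-57994850, minus strand), a long intergenic non-coding RNA, had the smallest adjusted p of the genes named here (5.68e-07). It stood at 2978, 3143, 3328 and 3637 in BPS1 and 564, 534, 552 and 566 in BPS2, a difference of -2.56 ± 0.08, with a control mean of 486. AC015813.2, annotated as protein-coding, overlaps both it and SRSF1 on the same strand and differed by -2.82 ± 0.17 (adjusted p = 3.87e-05). Reads of AC015813.1, AC015813.2 and SRSF1 may therefore not be cleanly divided. ITPR3, an inositol trisphosphate receptor whose end overlaps that of UQCC2 on the other strand, averaged 38.4 ± 1.18 in BPS1 and 6.56 ± 3.07 in BPS2. It too was chosen after its values were seen, and since it reached the filter through BPS1, with 1 BPS2 library above 10, its difference is given as a description, with no test.

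Genes of cholesterol synthesis were higher with BPS2. All 20 enzymes on the list were tested, 11 were called higher (55.0%, beside 1.66% of all genes tested) and 0 lower, and all 20 estimates lay above 0. Their median log2 difference was 0.48, with a range of 0.04 to 0.99, beside -0.00 for all genes tested. Groups did not overlap for 12 of them, all with BPS2 higher, beside 6.2% of all genes. Without BPS1 replicate 4, 18 were called higher and 0 lower, with the GC correction 13 and 0, and without any single library between 7 and 18. The list was chosen with the levels of this pathway in these libraries known, so it is no independent evidence of its direction.

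The promoters of SREBF2, HMGCS1 and MSMO1 are printed because SREBF2 encodes the regulator SREBP2 and the other two had the largest differences among the enzymes. They are RefSeq sequences of GRCh38.p14, cut at the first annotated exon base, and stand at chr22:41832855-41833078 (plus strand), chr5:43313513-43313662 (minus strand) and chr4:165327419-165327622 (plus strand). Capitals mark matches on either strand to CCAAT, the letters bound by the factor NF-Y, and to TCACNCCAC, a form of the sterol regulatory element. On the minus strand the first reads ATTGG.
SREBF2: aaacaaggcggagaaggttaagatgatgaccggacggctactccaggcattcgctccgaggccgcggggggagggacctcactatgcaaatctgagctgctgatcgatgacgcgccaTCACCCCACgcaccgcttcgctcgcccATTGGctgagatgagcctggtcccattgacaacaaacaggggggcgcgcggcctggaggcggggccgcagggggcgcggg
HMGCS1: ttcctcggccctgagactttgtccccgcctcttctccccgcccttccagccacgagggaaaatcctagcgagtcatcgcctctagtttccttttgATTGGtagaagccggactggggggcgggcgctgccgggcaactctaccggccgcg
MSMO1: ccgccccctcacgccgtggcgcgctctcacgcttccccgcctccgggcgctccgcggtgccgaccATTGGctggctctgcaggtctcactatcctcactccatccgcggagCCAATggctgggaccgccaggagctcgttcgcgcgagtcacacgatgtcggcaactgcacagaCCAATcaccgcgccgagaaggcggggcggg
The SREBF2 stretch held 1 match to TCACNCCAC and 1 to CCAAT, HMGCS1 held 1 CCAAT, and MSMO1 held 3. The next counts use windows of 250 bases that were not cut at exons and can reach into them. In these HMGCS1 held 2 CCAAT and MSMO1 4. CCAAT was present in 12 of the 15 matched cholesterol synthesis promoters (80%) and in 33% of 27305 promoters, 1 per symbol. At least 2 copies were present in 8 of the 15 (53.3%) and in 10% of all. TCACNCCAC was present in 0 of the 15 and in 0.875% of all. With so low a share over all promoters, 15 are too few for that 0 to show an absence. Other forms of the element were not searched. The called enzymes ACAT2, FDFT1 and SQLE were not among the 15. A match describes letters, not a bound site.

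SREBF2 itself stood at 8184, 8062, 8638 and 7953 in BPS1 and at 12903, 12395, 12415 and 12474 in BPS2. The groups were far apart, and the difference was 0.61 ± 0.06 (adjusted p = 6.34e-04), with a control mean of 11666. HMGCS1, which makes HMG-CoA, held 6746, 7169, 7153 and 5852 in BPS1 and 13653, 13139, 13462 and 13187 in BPS2. That was 1.99-fold (0.99 ± 0.08, adjusted p = 1.79e-04), and BPS2 also lay above the control mean of 10541. MSMO1, a sterol methyl oxidase late in the pathway, had 1700, 1745, 1810 and 1827 in BPS1 and 2989, 3168, 3553 and 3115 in BPS2 (0.85 ± 0.07, adjusted p = 4.88e-04). Each of these genes was higher in 4 of 4 BPS2 libraries than in any BPS1 library.

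Other called enzymes differed by less, and they came from both ends of the pathway. IDI1, which isomerizes isopentenyl diphosphate, differed by 0.53, the demethylase CYP51A1 by 0.53, HSD17B7 by 0.53 and the squalene epoxidase SQLE by 0.46. FDFT1, the squalene synthase, differed by 0.47, the thiolase ACAT2 by 0.55 and the lanosterol synthase LSS by 0.30. The calls of ACAT2, FDFT1 and LSS were each lost on omitting any library other than BPS1 replicate 4 (adjusted p up to 0.140, 0.0916 and 0.147), and that of HSD17B7 on omitting any but BPS1 replicates 1 and 4 (up to 0.0843). The LSS call was also lost with the GC correction (0.0688). The decarboxylase MVD differed by 0.58 ± 0.14 and missed the threshold (adjusted p = 0.0634). It was called with the GC correction (0.60, adjusted p = 0.00663) and without BPS1 replicate 4 (0.71, adjusted p = 0.0022). FDPS, the farnesyl diphosphate synthase, held 5347, 5468, 5504 and 8657 in BPS1 and 5873 to 6541 in BPS2 (0.04, 95% interval -0.28 to 0.37, adjusted p = 0.929). Its value in BPS1 replicate 4 was the highest of the 8, and without that library it was called higher (0.21, adjusted p = 0.0137).

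**Figure D4:**
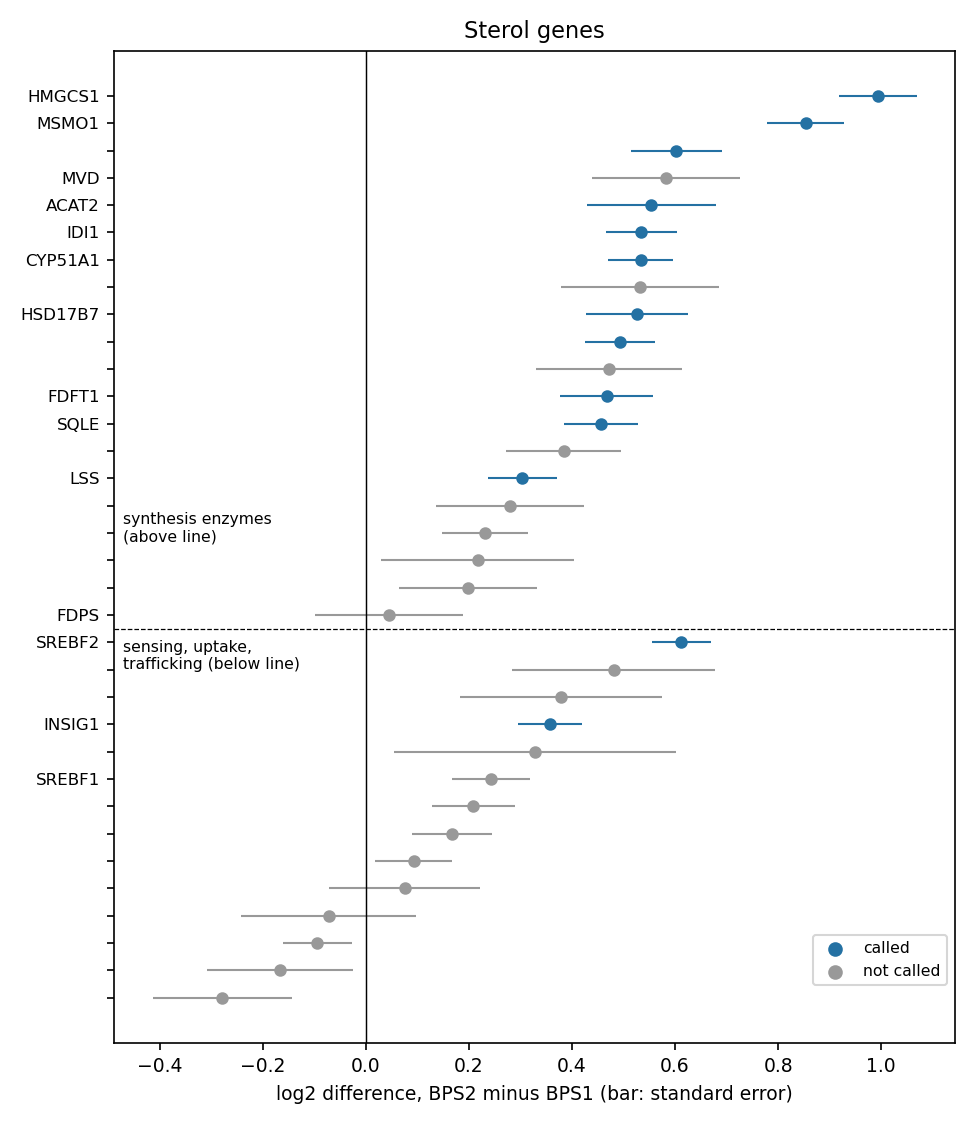
Log2 difference, BPS2 minus BPS1 (horizontal axis), with its standard error as a bar, for 20 cholesterol synthesis enzymes and 14 genes of sterol sensing, uptake and trafficking (genes described in the text are labelled). Blue points were called (limma adjusted p under 0.05). All 20 enzymes lie above 0, and SREBF2 and INSIG1 are the called genes of the second list.

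Genes of sterol sensing, uptake and trafficking differed less uniformly. Of 14 tested, 2 were called higher and 0 lower (median 0.19), and without BPS1 replicate 4 there were 4 higher and 1 lower. Besides SREBF2 the called gene was INSIG1, which retains SREBP2 in the endoplasmic reticulum and is itself an SREBP target (2948 ± 123 against 3773 ± 60.8, 0.36 ± 0.06, adjusted p = 0.0158). Its call was lost on omitting any library other than BPS1 replicate 4 (up to 0.0746). SREBF1, the paralogue of SREBF2 that drives fatty acid synthesis, differed by 0.24 (adjusted p = 0.137, or 0.0159 without BPS1 replicate 4). Of 14 fatty acid synthesis genes 0 were called in either direction in the 8 libraries (median 0.03), and 3 higher and 2 lower without BPS1 replicate 4. The desaturase SCD differed by 0.14 and the synthase FASN by 0.19 (adjusted p = 0.228 and 0.375, with SCD called higher at 0.0259 without BPS1 replicate 4). Of 8 genes of sterol efflux and the LXR receptors 2 were called higher and 0 lower (median 0.18), and the same counts were found without BPS1 replicate 4. They were the transporter ABCG1 (118 ± 19.1 against 197 ± 14.1, 0.75, adjusted p = 0.0220) and the phospholipid acyltransferase LPCAT3 (0.59, adjusted p = 0.0154). The ABCG1 call was lost without BPS1 replicate 2 or any BPS2 library (up to 0.0843), and the LPCAT3 call without BPS1 replicate 3 or BPS2 replicate 2 or 4 (up to 0.0642). AC114947.2, an antisense row that overlaps HMGCS1 and was chosen after its values were seen, averaged 15.3 ± 5.18 in BPS1 and 54.9 ± 14.1 in BPS2 (1.79 ± 0.27, adjusted p = 0.00758).

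Called stress-response genes were higher with BPS2. In the list of glutathione and NRF2 genes 4 of 19 were called higher and 0 lower (median 0.18), and 12 and 0 without BPS1 replicate 4. SLC7A11, the cystine importer that feeds glutathione synthesis, held 434, 384, 421 and 234 in BPS1 and 828, 782, 824 and 781 in BPS2. BPS1 replicate 4 was the lowest, and the difference was 1.16 ± 0.18 (adjusted p = 0.00867). NQO1, a quinone reductase induced by NRF2, held 801, 855, 785 and 1138 in BPS1 and 1623, 1721, 1799 and 1802 in BPS2. Its groups were apart by 0.97 ± 0.12 (adjusted p = 0.00324), and the control mean, 1010, was nearer to BPS1. OSGIN1 (0.88, adjusted p = 0.0333) and the glutathione synthesis subunit GCLM (0.39, adjusted p = 0.0434) were called as well. The OSGIN1 call was lost on omitting any library but BPS1 replicates 1 and 4 (up to 0.112), and the GCLM call on omitting any but BPS1 replicate 4 (up to 0.132) and with the GC correction (0.0551).

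In the list of ATF4 targets and the unfolded protein response, 3 of 30 were called higher and 0 lower (median 0.19), and 16 and 0 without BPS1 replicate 4. Besides SLC7A11 these were DDIT4 and SESN2, inhibitors of mTORC1 signalling. DDIT4 held 833, 777, 782 and 994 in BPS1 and 1250, 1493, 1500 and 1530 in BPS2 (0.77 ± 0.11, adjusted p = 0.00523), with the lowest BPS2 value in replicate 1. SESN2 averaged 537 ± 45.2 and 830 ± 48.2 (0.63 ± 0.09, adjusted p = 0.00676). In the p53 list 2 of 24 were called higher and 0 lower (median 0.18), 6 and 0 without BPS1 replicate 4, and 4 and 0 with the GC correction. They were SESN2 and CDKN1A, the inhibitor p21, at 1081, 993, 1034 and 1201 in BPS1 and 1790, 2022, 2107 and 1767 in BPS2 (0.83 ± 0.09, adjusted p = 0.0020). Its groups did not overlap, and the control mean of 1634 was below every BPS2 value. RRM2B, the p53-induced ribonucleotide reductase subunit, differed by 1.00 ± 0.24 and missed the threshold (adjusted p = 0.0604). It was called with the GC correction (0.0377) and without BPS1 replicate 4 (0.0341). Heat shock proteins had 0 of 18 called in either direction (median -0.10), and 4 higher and 4 lower without BPS1 replicate 4.

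Inflammatory and RNA-sensing genes were called in both directions. Of 13 NF-kB feedback and inflammatory genes 2 were called higher and 0 lower (median 0.45), and 4 and 0 without BPS1 replicate 4. One of the 2 was ICAM1, an adhesion molecule, at 7.77, 3.02, 3.27 and 5.54 in BPS1 and 25.5, 19.5, 18.9 and 21.5 in BPS2. It passed the filter on low values only through BPS2, so its difference is given with no test and its call adds nothing to the list. The chemokine CCL2 averaged 18.1 ± 5.43 and 49.0 ± 6.01 (1.43 ± 0.24, adjusted p = 0.0125), and its call was lost without BPS2 replicate 2 or 3 (up to 0.0548). In the interferon and RNA sensor list 1 of 21 was called higher and 1 lower (median -0.02), and 1 and 3 without BPS1 replicate 4. DDX58 was the lower gene. The higher one was STAT2, a signal transducer of type I interferon, at 439 ± 48.3 in BPS1 and 717 ± 43.0 in BPS2 (0.71 ± 0.10, adjusted p = 0.00564).

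A few genes of developmental signalling pathways were called, and list medians lay between -0.14 and 0.02. In the BMP and SMAD list 0 of 18 were called higher and 3 lower (median -0.05), and 1 higher and 5 lower without BPS1 replicate 4. BAMBI, a decoy receptor of the pathway, held 965, 948, 1008 and 1469 in BPS1 and 602, 660, 688 and 666 in BPS2. All BPS2 values were lower, and the difference was -0.72 ± 0.14 (adjusted p = 0.0245). SMAD6, an inhibitory SMAD, stood at 1740, 1681, 1755 and 2447 against 1189, 1303, 1361 and 1203 (-0.58 ± 0.12, adjusted p = 0.0372). SKIL, a SMAD co-repressor, differed by -0.83 ± 0.16 (adjusted p = 0.0224). The control means of BAMBI, SMAD6 and SKIL were 357 ± 26.1, 670 ± 71.3 and 1323 ± 470 (SD), below both group means. The SKIL control values, 712 to 1758, overlapped those of BPS2. The BAMBI call was lost without BPS1 replicate 3 or any BPS2 library (up to 0.0794), the SKIL call without any library but BPS1 replicate 4 and BPS2 replicate 1 (up to 0.0841), and the SMAD6 call without any but BPS1 replicate 4 (up to 0.119).

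The Wnt list had 0 of 16 genes higher and 2 lower (median -0.05), with the same counts without BPS1 replicate 4. APCDD1, a membrane inhibitor of Wnt, averaged 279 ± 20.2 and 168 ± 17.8 (-0.73 ± 0.11, adjusted p = 0.00868). TCF7, a Wnt effector, averaged 846 ± 34.5 and 616 ± 46.7 (-0.46, adjusted p = 0.0216), and its call was lost on omitting any library but BPS1 replicates 2 and 4 (up to 0.0778). The secreted inhibitor DKK1 averaged 3209 ± 424 and 2693 ± 244, beside 907 in control, and BPS2 minus BPS1 was -0.25 (95% interval -0.48 to -0.01, adjusted p = 0.284). In the Notch list 0 of 16 were higher and 1 lower (median -0.14), and 0 and 4 without BPS1 replicate 4. HEY1, a Notch-induced repressor, averaged 777 ± 84.3 and 544 ± 52.9 (-0.51 ± 0.11, adjusted p = 0.0351), and its call was lost without any library but BPS1 replicate 4 and BPS2 replicate 3 (up to 0.114). HES1 differed by -0.63 ± 0.20 (adjusted p = 0.152). Among 16 ERK feedback genes 0 were higher and 1 lower (median -0.07), 1 and 3 without BPS1 replicate 4, and 0 and 2 with the GC correction. That gene was SPRY4, an inhibitor of signalling from receptor tyrosine kinases, at 2066 ± 154 and 1574 ± 77.4 (-0.39 ± 0.08, adjusted p = 0.0330). Its call was lost without any library but BPS1 replicates 1 and 4 (up to 0.112). Immediate early factors had 0 of 19 called (median 0.02), and 3 higher and 0 lower without BPS1 replicate 4. Of 29 semaphorin, plexin, ephrin, netrin and slit genes 0 were higher and 1 lower (median -0.08), and 2 and 4 without BPS1 replicate 4. The called gene was the semaphorin receptor PLXNA2, at 6203, 6118, 6063 and 6003 in BPS1 and 3604, 3050, 4604 and 3770 in BPS2 (-0.71 ± 0.11, adjusted p = 0.00872).

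**Figure D5:**
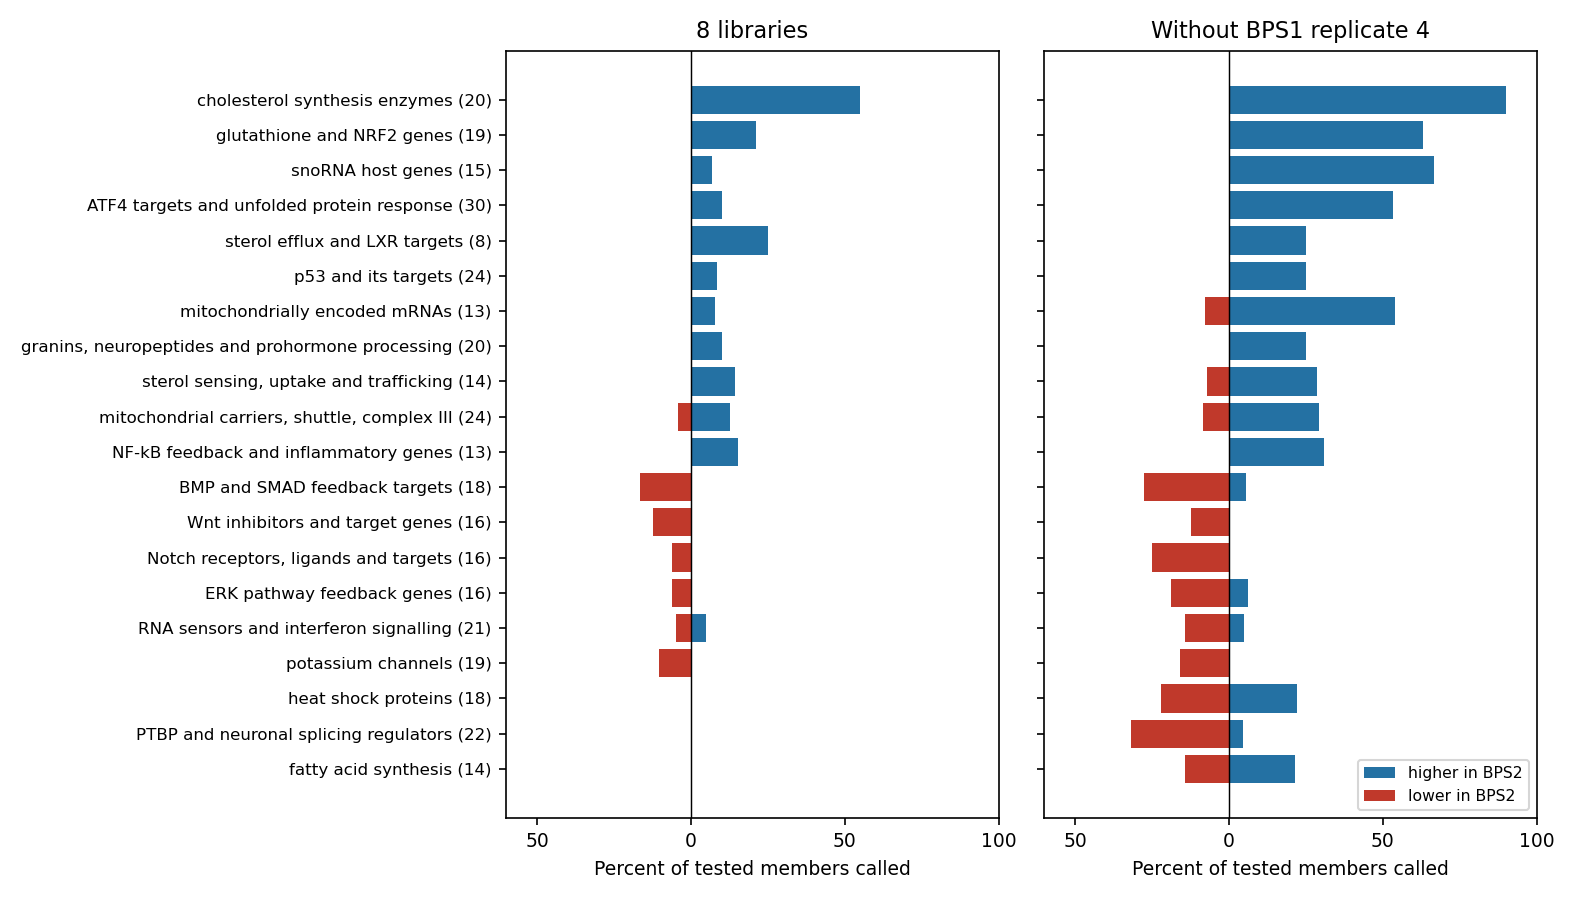
Percent of the members of 20 of the 43 gene lists called higher (blue, to the right) or lower (red, to the left) in BPS2 than in BPS1. The panels show the 8 libraries and the fit without BPS1 replicate 4. In both, the percent is of the members tested in the 8 libraries (number in parentheses). Of the 20 cholesterol synthesis enzymes, 11 were called higher in the 8 libraries and 18 without that replicate.

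Neuronal genes differed singly. STMN2, a stathmin that regulates microtubules in growing neurites, held 4116, 3061, 2942 and 2822 in BPS1 and 6914, 6556, 6315 and 6819 in BPS2. Their ranges were far apart (1.06 ± 0.11, adjusted p = 0.00167), and both lay below the control mean of 10858. With the microtubule protein MAP1A (0.36, adjusted p = 0.0195, lost without any library but BPS1 replicate 4 and BPS2 replicate 2, up to 0.0802) it made up the 2 of 19 microtubule genes called higher, with 0 lower (median 0.11), or 8 higher and 2 lower without BPS1 replicate 4. Among 20 granin, neuropeptide and prohormone processing genes 2 were higher and 0 lower (median 0.17), and 5 and 0 without that library. They encode the prohormone processing enzymes CPE (825 ± 15.2 against 1199 ± 51.1, 0.54, adjusted p = 0.00446) and PAM (0.46, adjusted p = 0.00962). Of 20 adrenergic core transcription factors 1 was higher and 0 lower (median -0.03), or 4 and 1. HAND2, which specifies sympathetic neurons, averaged 11702 ± 932 and 15285 ± 362 (0.39 ± 0.07, adjusted p = 0.0165), and its call was lost without BPS1 replicate 2 or 3 or BPS2 replicate 2, 3 or 4 (up to 0.0760). MYCN differed by 0.17 (95% interval 0.01 to 0.33, adjusted p = 0.292), and it was called higher without BPS1 replicate 4 (0.23, adjusted p = 0.00101). Catecholamine genes had 0 of 11 called (median 0.29), but 6 higher and 0 lower without BPS1 replicate 4, and 3 and 0 with the GC correction. The decarboxylase DDC differed by 0.41 (adjusted p = 0.0697), the amine oxidase MAOA by 0.38 (0.0622), the tyrosine hydroxylase TH by 0.32 (0.238) and the dopamine hydroxylase DBH by 0.16 (0.345). With the GC correction TH (0.0218) and MAOA (0.0433) were called, and without BPS1 replicate 4 all of DDC, MAOA, TH and DBH (0.00158, 0.0161, 7.05e-04 and 0.00656).

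In the synaptic vesicle list 1 of 20 was higher and 0 lower (median -0.03), or 3 and 2 without BPS1 replicate 4. It was the vesicle SNARE gene VAMP2 (0.32, adjusted p = 0.0495, lost without any library but BPS1 replicate 4, up to 0.156). Among 19 potassium channel genes 0 were higher and 2 lower (median -0.05), or 0 and 3. Beside KCNT1 this was KCNH6, at 212 ± 27.0 and 118 ± 11.4 (-0.83 ± 0.13, adjusted p = 0.00868). In the retinoic acid list 1 of 16 was higher and 0 lower (median -0.02), or 2 and 1. The carrier protein gene CRABP2 averaged 285 ± 42.5 and 537 ± 49.9 (0.92 ± 0.12, adjusted p = 0.00474). Of 7 oncofetal genes 1 was higher and 0 lower (median -0.09), or 1 and 3. The growth factor gene IGF2, whose row overlaps INS-IGF2, averaged 34950 ± 323 and 44291 ± 1694 (0.34 ± 0.05, adjusted p = 0.00868). Neuronal splicing regulators (0 of 22, median -0.03) and neuroblastoma receptor kinases (0 of 16, median -0.13) had no call. Without BPS1 replicate 4 they had 1 higher and 7 lower, and 1 and 1.

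Genes of a list of mitochondrial carriers, the malate and aspartate shuttle with its cytosolic partners, and complex III assembly were called in both directions. Of 24 tested, 3 were higher and 1 lower (median 0.04), or 7 and 2 without BPS1 replicate 4. The higher genes were SLC25A13, UQCC2 and the cytosolic enzyme IDH1. The lower one was SLC25A12, the paralogue of SLC25A13 that dominates in brain and muscle, at 1186 ± 128 in BPS1 and 851 ± 67.7 in BPS2 (-0.48 ± 0.10, adjusted p = 0.0372). Its call was lost on omitting any library but BPS1 replicate 4 (up to 0.120). Chosen after its values were seen, ATP5MC2, a proteolipid subunit of the ATP synthase, stood at 3678, 3675, 3553 and 4867 against 7678, 8286, 8421 and 8171 (1.06 ± 0.10, adjusted p = 7.51e-04).

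RNAs encoded by the mitochondrial genome also moved in both directions. The mitochondrial share of all values was 7.31% to 7.74% in BPS1 libraries and 7.93% to 8.23% in BPS2 libraries. Of 13 mitochondrial mRNAs 1 was higher and 0 lower (median 0.11), or 7 and 1 without BPS1 replicate 4. MT-CO2, a core subunit of cytochrome oxidase, averaged 172866 ± 22288 and 231228 ± 1760 (0.43 ± 0.08, adjusted p = 0.0243), and its call was lost without any library but BPS1 replicate 4 (up to 0.0943). The 12S ribosomal RNA MT-RNR1, chosen like the next RNAs after its values were seen, held 30072, 33245, 33168 and 46111 in BPS1 and 18060, 18854, 18660 and 19098 in BPS2 (-0.91 ± 0.12, adjusted p = 0.00347). Its neighbours on the mitochondrial genome, the transfer RNA genes MT-TF and MT-TV, were lower as well (-1.31 and -1.09, adjusted p = 0.0380 and 0.0106). The MT-TF call was lost without any library but BPS1 replicate 4 and BPS2 replicate 2 (up to 0.113). Of the 2 mitochondrial ribosomal RNAs tested, only MT-RNR1 was called (0 higher, 1 lower). Of 21 mitochondrial transfer RNAs tested, 1 was called higher and 4 lower. All 5 rows of 5.8S ribosomal RNA were called higher, such as RNA5-8SN1 (156 ± 20.02 against 262 ± 22.3, 0.75 ± 0.12, adjusted p = 0.0117, lost without BPS2 replicate 4 at 0.0546). These copies share their sequence and are 1 measurement. Libraries were depleted of ribosomal RNA, so these levels are what depletion left.

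Cell cycle genes differed singly too. Of 14 G1 cyclins and CDK inhibitors 2 were higher and 1 lower (median 0.01), or 3 and 2 without BPS1 replicate 4. CDKN1A and the kinase CDK4 (0.45, adjusted p = 0.0378, lost without any library but BPS1 replicate 4, up to 0.127) were higher and CCNI was lower. Of 25 replication genes 1 was higher and 1 lower (median -0.02), or 8 and 1. POLA1, the catalytic subunit of DNA polymerase alpha, averaged 1221 ± 58.8 and 2144 ± 227 (0.81 ± 0.09, adjusted p = 0.0020). The reductase subunit RRM1 differed by -0.33 (adjusted p = 0.0284, lost without any library but BPS1 replicates 1 and 4, up to 0.112). Of 25 mitosis genes 1 was higher and 0 lower (median 0.02), or 5 and 0. It was the cytokinesis kinesin KIF23, at 1780 ± 115 and 2723 ± 29.9 (0.61 ± 0.07, adjusted p = 0.00235). In the BCL2 family HRK was the 1 of 16 called higher, with 0 lower (median -0.04), or 4 and 4 without BPS1 replicate 4, and 1 and 1 with the GC correction. BCL2 itself differed by -0.52 (adjusted p = 0.0620, or 0.0322 with the GC correction and 0.00732 without BPS1 replicate 4). The MYC, MAX and MXD network (0 of 12, median -0.03) and ribosome biogenesis genes (0 of 20, median -0.06) had no call, and 3 higher and 1 lower each without BPS1 replicate 4.

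In the glycolysis and hypoxia list 1 of 24 was higher and 0 lower (median 0.07), or 7 and 2 without BPS1 replicate 4. It was the pyruvate kinase gene PKM (30880 ± 1042 against 36455 ± 613, 0.24 ± 0.05, adjusted p = 0.0408, lost without any library but BPS1 replicate 4, up to 0.154). In GPI anchor synthesis 2 of 23 were higher and 0 lower (median 0.06), or 6 and 0, and 1 and 0 with the GC correction. PIGH, a subunit of the enzyme of the first step, differed by 0.46 (adjusted p = 0.0165, lost without BPS1 replicate 2 or any BPS2 library, up to 0.0707), and PIGK, the catalytic subunit of the GPI transamidase, by 0.40 (adjusted p = 0.0397, lost without any library but BPS1 replicate 4, up to 0.137, and with the GC correction at 0.0699). The list of genes along chromosome 17 from AKAP1 to TRIM37 leaves out AC015813.1 and AC015813.2, which lie there and were both called lower. Of its 17 tested genes 5 were higher and 3 lower without BPS1 replicate 4, and 2 and 0 with the GC correction. In the 8 libraries 1 was higher and 0 lower (median 0.02). It was the mitochondrial anchoring protein AKAP1 (0.37, adjusted p = 0.0110, lost without BPS1 replicate 3 or BPS2 replicate 3 or 4, up to 0.0559).

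The cells carried the markers of their label in both groups. All 13 neuroblastoma markers were tested, and 2 were higher in BPS2, STMN2 and HAND2, with 0 lower (median 0.16), or 8 and 1 without BPS1 replicate 4. Their summed level was 202478 to 259110 in BPS1 libraries and 239084 to 254627 in BPS2 libraries, so the groups overlapped. Of 20 mesenchymal state markers 19 were tested and 0 were called (median 0.01), or 3 higher and 1 lower without BPS1 replicate 4, with sums of 14424 to 15281 and 13554 to 14652. Of 20 markers of epithelial, immune, endothelial, Schwann and muscle cells 10 were tested and 0 were called in either direction, with or without BPS1 replicate 4 (median -0.00). Their summed level was 649 to 787 in BPS1 and 548 to 659 in BPS2. KRT5 and SOX10, which define basal epithelium and Schwann cells, were each at 0 in 6 of the 8 libraries. In bulk RNA, fewer cells of a state and less RNA per cell cannot be told apart.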

How the data were processed

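The authors deposited 1 table of normalized counts per gene and library (a signal, not whole reads) for 55771 genes. Per the submitters' processing notes it was made with Salmon 0.8.2 and DESeq2 on GRCh38, after FastQC 0.11.7. The annotation release is not given in the sources used here. Columns were matched to samples by title: the description of the BPS2 samples holds another name, KPAS, and BPS1 replicate 3 is spelled BSP1. Whole reads could not be recovered for most genes, so no count test was run. Depth, as the total divided by the value of 1 read, was about 30.0 to 31.8 M reads per library.

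The filter kept 19654 genes that reached 10 in 4 or more of the 8 libraries. The fit used log2(value + 1), a scale that understates the change of low genes, in limma 3.58.1 in R 4.3.3 (lmFit, and eBayes with a trend), with group as the only term. Genes were called at an adjusted p under 0.05 (two-sided, Benjamini-Hochberg over all genes tested). Replicate chi-square per gene was at least 1.82, so no libraries agreed within sampling noise. The same code was first tested on simulated data.

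The 43 gene lists, their members and the comparison were chosen with earlier results of these data known. Genes named were NEAT1, the 12 largest rises and 12 largest falls among called genes with a symbol, a mean of at least 50 in a group and no overlap, up to 6 members of each list by p, and NONO, SFPQ, PSPC1 and MYCN. Some genes that this rule takes are not reported here. List members beyond the 6 by p were also named where called, as were some that were not called, such as MVD and FDPS. These were added after their values were seen. Other genes outside this rule are marked in the text as chosen after seeing their values. Positions, gene types and GC content come from GENCODE 29 (GRCh38; 53405 identifiers found), and promoters from RefSeq (GRCh38.p14). Alternatives were other pseudocounts, filters and scalings, robust variances, library weights, a replicate block, all 12 libraries in the fit, a 1.5-fold minimum, a GC correction and the omission of each library. The GC correction without BPS1 replicate 4 was added after seeing the data.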

Additional observations from a re-analysis of the deposited data

Results flagged for a closer look

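Among 216 groups of 4 libraries checked for the genes named, 25 had a library far from the other 3 by Dixon's 95% limit, which chance exceeds in about 5% of groups. Of the 25, 19 were BPS1 replicate 4, the library that stands apart as a whole, and 4 were BPS2 replicate 1.

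BPS1 replicate 4 was the high value for ZBED6CL (580), FERMT3 (109), NONO (24400), SFPQ (25200), ACAT2 (4430), FDFT1 (3980), INSIG1 (3130), SMAD6 (2450), BAMBI (1470), MT-CO2 (206000), PKM (32400), VAMP2 (2140), KCNH6 (252), FDPS (8660), TH (4710), DBH (27600), AC114947.2 (23.0) and ATP5MC2 (4870). It was the low value for NORAD (5500). For NONO, SFPQ, FDPS and TH it lay above every BPS2 library, and for DBH within their range. For FERMT3, KCNH6, SMAD6, BAMBI and NORAD it lay farther from BPS2 than the other BPS1 libraries did, and for the rest it lay between them and BPS2.

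BPS2 replicate 1 was low for FDFT1 (4330) and DDIT4 (1250) and high for SREBF2 (12900) and RRM2B (1700). BPS2 replicate 2 was high for ABCG1 (218) and replicate 4 for KCNT1 (40.3).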

How the results depend on the processing

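All 562 called genes kept their direction under every alternative that tested them. The number called was 548 and 578 with pseudocounts of 0.5 and 5, 395 with no filter, 569 with a minimum of 50, 574 and 656 with median-of-ratios and quantile scaling, 541 with robust variances, 813 with all 12 libraries in the fit and 739 with the GC correction. It moved further to 3682 with library weights, 19 with a 1.5-fold minimum, and 235 to 3336 on leaving out single libraries. It was 3360 with the GC correction and BPS1 replicate 4 omitted, an alternative chosen after seeing the data. The share of calls that were higher was 57.0% to 65.6% in all of these except the 1.5-fold minimum (47.4%). The NEAT1 difference was 0.93 to 1.18 on leaving out single libraries (adjusted p up to 0.0244). It was 1.10 with an adjusted p of 0.9005 against the 1.5-fold minimum. The FDPS estimate changed sign without BPS1 replicates 1, 2 or 3 (-0.0195, -0.0088 and -0.0056) and reached 0.21 without BPS1 replicate 4. The cause of these moves was not tested.

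With the replicate number as a block 265 genes were called (171 higher, 94 lower), of which 245 were among the 562, and 345 with the block and the GC correction. In the cholesterol synthesis list 7 were then called higher and 0 lower. No clear pairing by number was seen. Same-numbered deviations correlated at 0.12, -0.02, -0.08 and 0.07, and the best BPS2 partner of BPS1 replicates 1 to 4 was 1, 1, 1 and 3. With 4 pairs, and BPS1 replicate 4 apart from the rest, these values cannot exclude a batch shared by replicate number. Of the calls, 52 were of genes with a mean under 50 in both groups, where counting error weighs most.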
